A study of Mus musculus with 8 samples.

Results

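The genes described here are 9 genes of central nervous system myelin (Mbp, Mobp, Mog, Mag, Cnp, Mal, Cldn11, Opalin and Ermn), taken by symbol from the 55414 genes of an RNA-seq count table. All 9 were found, 1 row each, and all 9 passed the filter on low counts that left 24356 genes for testing. The libraries came from a mouse model of supratentorial ependymoma, a glial brain tumor, driven by the ZFTA-RELA fusion gene. Naive brain and tumor were each sampled under vehicle and under MRX-2843, which gave 4 groups of 2 libraries. Every library, naive brain included, is labelled with the ZFTA-RELA fusion as genotype and with the drug name as cell line, so neither label separates the groups. MRX-2843, which blocks the kinases MERTK and FLT3, was given by mouth at 50 mg/kg once daily for 5 days, vehicle on the same schedule, and tissue was taken 1 h after the last dose. Strain, age, the cells that express the fusion, and whether the naive tissue came from tumor-bearing animals are not given in the sources used here. The 2 libraries of each group are labelled duplicates and no animals are named, so p-values measure the spread between these libraries, which may be technical.

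Oligodendrocytes wrap axons in layers of compacted membrane. Myelin basic protein holds the compact layers together, while other proteins sit in the innermost layer against the axon, on the outer surface, or in the cytoplasmic channels between layers. Transcription of many myelin genes, though not all, is switched on late, after precursor cells have stopped dividing, under factors that include SOX10, OLIG2 and MYRF. In bulk tissue, fewer oligodendrocytes and less myelin RNA per oligodendrocyte cannot be told apart.

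Library totals ran from 51150569 to 112938462 counts. Levels are CPM, counts as a share of library totals scaled by TMM, a method that sets most genes to no change, and 3 counts correspond to 0.0281 to 0.0615 CPM. Vehicle tumor stood apart from the other groups: mitochondrially encoded genes took 3.26 and 3.37% of its counts against 14.73 to 18.55% in the other 6 libraries, which include both libraries labelled MRX-2843 tumor. The summed level of 6 proliferation genes was 342 and 343 CPM in the vehicle tumors and 67.2 and 59.1 in the tumors under drug, beside 32.5 to 42.4 in the naive libraries. Pcna made up much of the lower sums, at 34.1 and 32.5 CPM in MRX-2843 tumor and 26.6 to 33.8 in the naive libraries. All 6 were called higher (a call is defined below) in MRX-2843 tumor than in MRX-2843 naive brain, with a median log2 fold change of 2.87. Of all genes tested, 12.4% were called higher in that comparison. The summed level of 8 neuron markers was 5988 and 5849 CPM in vehicle naive brain, 335 and 338 in vehicle tumor, and under MRX-2843 2862 and 2943 in naive brain and 3120 and 3091 in tumor. All MRX-2843 columns carry the number 909 and all vehicle columns 914 or 915, and the X-linked Xist was at 526 to 795 CPM in MRX-2843 and 0.408 to 2.88 CPM in vehicle libraries. Treatment cannot be told apart from either. In mitochondrial share and in neuron markers the libraries labelled MRX-2843 tumor were thus nearer to MRX-2843 naive brain than to vehicle tumor, and how much tumor tissue they hold was not tested. The labels were kept, and every value given for MRX-2843 tumor rests on them. What these differences contributed to the results below was not tested.

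The 9 genes lie on 8 chromosomes (GENCODE M21 on GRCm38). Mobp lies on chromosome 9 (120149707 to 120181484), Mog on 17 (37010743 to 37023398), Mag on 7 (30899176 to 30914873), Cnp on 11 (100574904 to 100591729), Mal on 2 (127633226 to 127656695), Cldn11 on 3 (31149920 to 31164324), Opalin on 19 (41061710 to 41077113), Ermn on 2 (58045113 to 58052864) and Mbp on 18. Exons of Cnp share 154 bases with the antisense gene Dnajc7, those of Ermn 237 bases with the antisense gene Galnt5, and those of Mobp 79 bases with Gm38642 on the same strand. The strand setting of the counting is not given in the sources used here, so reads in these stretches cannot be assigned with certainty.

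Stretches of promoter are shown for 4 genes because they belong to the members at either end of the response described below: Mobp and Ermn, whose vehicle tumor levels were lowest relative to naive brain, and Cnp and Cldn11, whose levels were least reduced. They are the bases before the annotated start, from the RefSeq promoter table on GRCm38.p6: chr9:120149492-120149706 (plus strand) for Mobp, chr2:58052865-58053114 (minus strand) for Ermn, chr11:100574689-100574903 (plus strand) for Cnp and chr3:31149670-31149919 (plus strand) for Cldn11. Capitals mark matches, on either strand, to ACAAAG or ACAATG (SOX-type), CTGGCAC or CTGGTAC (MYRF-type) and CAGCTG or CATCTG (E-box).
Mobp: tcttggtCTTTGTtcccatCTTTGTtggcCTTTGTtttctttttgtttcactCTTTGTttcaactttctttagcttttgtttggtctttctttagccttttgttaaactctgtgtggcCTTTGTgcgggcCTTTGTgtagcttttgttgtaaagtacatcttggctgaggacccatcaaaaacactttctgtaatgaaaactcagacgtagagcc
Ermn: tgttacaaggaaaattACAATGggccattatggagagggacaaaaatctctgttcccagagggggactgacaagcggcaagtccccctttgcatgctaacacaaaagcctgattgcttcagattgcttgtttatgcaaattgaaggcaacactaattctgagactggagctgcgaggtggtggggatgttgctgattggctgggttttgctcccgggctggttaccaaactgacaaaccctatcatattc
Cnp: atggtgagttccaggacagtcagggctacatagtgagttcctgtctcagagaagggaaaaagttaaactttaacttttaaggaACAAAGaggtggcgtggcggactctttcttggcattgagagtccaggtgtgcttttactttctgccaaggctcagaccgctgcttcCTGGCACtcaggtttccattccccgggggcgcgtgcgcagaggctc
Cldn11: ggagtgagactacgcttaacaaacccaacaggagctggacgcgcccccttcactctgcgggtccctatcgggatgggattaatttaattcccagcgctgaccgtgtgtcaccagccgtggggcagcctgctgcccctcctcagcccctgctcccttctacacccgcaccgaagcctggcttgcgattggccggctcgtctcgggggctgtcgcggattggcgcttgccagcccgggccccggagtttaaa
Motifs were searched in the 250 bases before the RefSeq start of every window, and the stretches of Mobp and Cnp are shown only up to the GENCODE start of the gene. The Mobp stretch held 6 matches to ACAAAG, all on the opposite strand, and its window was the only 1 of 32851 (0.00304%) with as many. Ermn held 1 ACAATG, Cnp 1 ACAAAG and 1 CTGGCAC, and Cldn11 none of the 6 motifs. The 8 members with a window (Mbp is not among them) had 10 windows. Of these, 6 windows (5 members) held a SOX-type motif, against 25.2% of all windows, and 4 (3 members) a MYRF-type motif, against 5.93%. An E-box of these letters was found in 1 of the 10 windows, that of Opalin, against 25.5% of all windows. The motifs do not overlap one another in the stretches shown, Mag has several windows, some of which overlap, and a match is a description of letters only. The overlapping Mag windows hold the same ACAAAG site and the same CTGGCAC site, so the window counts take each site more than once.

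In naive brain these genes were abundant, and together they took 0.535 and 0.537% of all counts in vehicle naive brain. Their share was 0.0417 and 0.0423% in vehicle tumor, and under MRX-2843 0.578 and 0.558% in naive brain and 1.06 and 1.12% in tumor. Vehicle tumor was therefore the low group and MRX-2843 tumor the high one, with both naive groups between them and close to each other. For every one of the 9 genes, both vehicle tumor libraries lay below all 4 naive libraries and both MRX-2843 tumor libraries above them, an order found in 5.3% of all genes tested. Levels below are given library by library.

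**Figure D1:**
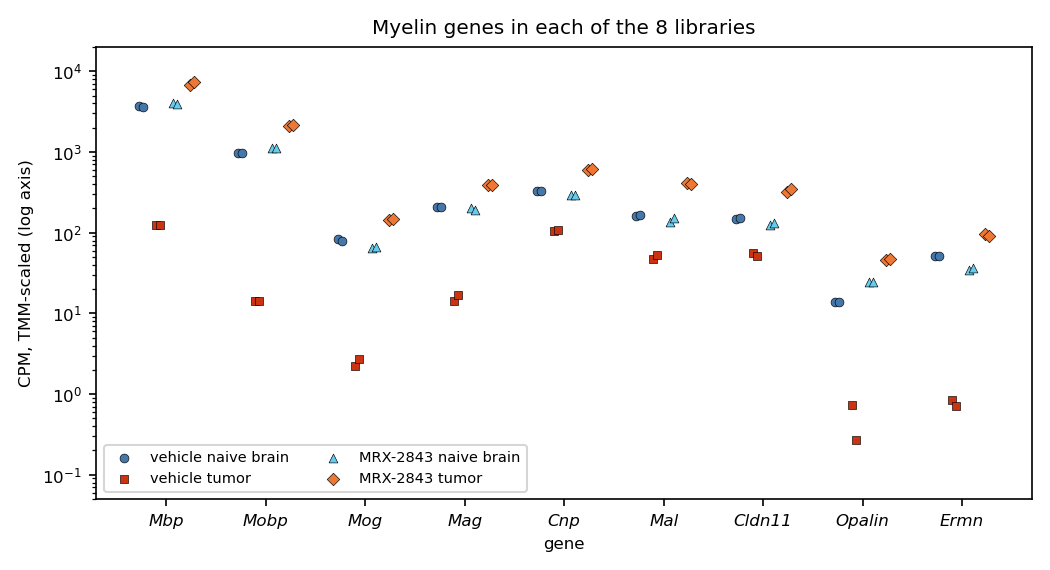
Level of each of the 9 myelin genes in the 8 libraries, in TMM-scaled CPM on a log axis; each point is 1 library and the marker shape and color give the group. Vehicle tumor is lowest and MRX-2843 tumor highest for each gene, from 126 CPM and less for Mbp and the other genes in vehicle tumor to 7301 CPM for Mbp in MRX-2843 tumor.

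Proteins of compact myelin come first. Mbp, encoding the basic protein that seals the cytoplasmic faces of the membrane, was at 3672 and 3650 CPM in vehicle naive brain, 125 and 126 in vehicle tumor, and under MRX-2843 4060 and 3894 in naive brain and 6751 and 7301 in tumor. The high and low tumor groups differed by a fitted factor of 56.0. Mobp, encoding a small basic protein of the same layers, was at 970 and 971 CPM in vehicle naive brain, 14.1 and 14.3 in vehicle tumor, and under MRX-2843 1122 and 1119 in naive brain and 2124 and 2157 in tumor. Its factor between the tumor groups, 151, was the highest of the 9. Cldn11, encoding the claudin of the tight junctions between myelin layers, was at 148 and 151 CPM in vehicle naive brain, 55.8 and 52.0 in vehicle tumor, and under MRX-2843 124 and 131 in naive brain and 320 and 346 in tumor. Both vehicle tumor libraries again lay below every naive library, by less than for Mbp and Mobp.

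Surface and axon-facing proteins followed. Mag, encoding an adhesion molecule of the layer next to the axon, was at 209 and 206 CPM in vehicle naive brain, 14.1 and 16.7 in vehicle tumor, and under MRX-2843 205 and 189 in naive brain and 390 and 394 in tumor. Its level in MRX-2843 tumor was about that of naive brain multiplied by 1.99, and its naive groups differed less than those of any other member. Mog, encoding an immunoglobulin-family protein of the outermost surface, was at 84.3 and 78.0 CPM in vehicle naive brain, 2.22 and 2.69 in vehicle tumor, and under MRX-2843 65.1 and 67.0 in naive brain and 143 and 147 in tumor. Opalin, encoding a transmembrane glycoprotein of oligodendrocytes, was at 13.9 and 13.8 CPM in vehicle naive brain, 0.740 and 0.272 in vehicle tumor, and under MRX-2843 24.7 and 24.5 in naive brain and 45.6 and 47.7 in tumor. The vehicle tumor values of Opalin rest on 64 and 24 counts, and it was the member whose naive groups lay farthest apart.

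The remaining members act in the cytoplasm or in membrane traffic. Cnp, encoding an enzyme that keeps cytoplasmic channels in myelin open, was at 325 and 324 CPM in vehicle naive brain, 105 and 108 in vehicle tumor, and under MRX-2843 292 and 293 in naive brain and 591 and 618 in tumor. Mal, encoding a proteolipid of membrane sorting, was at 160 and 164 CPM in vehicle naive brain, 47.5 and 53.7 in vehicle tumor, and under MRX-2843 137 and 150 in naive brain and 415 and 398 in tumor. With Cldn11, these were the members that kept the highest fraction of their naive level in vehicle tumor. Ermn, encoding a cytoskeletal protein of late oligodendrocytes, was at 51.2 and 51.8 CPM in vehicle naive brain, 0.856 and 0.703 in vehicle tumor, and under MRX-2843 34.9 and 36.6 in naive brain and 96.1 and 92.1 in tumor. Its vehicle tumor values rest on 74 and 62 counts.

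In vehicle-treated mice all 9 genes were lower in tumor than in naive brain, but by very different amounts. Changes are log2 fold changes ± SE from edgeR's quasi-likelihood test on 2 libraries per group, with Benjamini-Hochberg adjustment over all genes tested, and a gene is called at an adjusted p under 0.05. Mobp fell by 6.10 ± 0.05 (adjusted p = 2.9e-18) and Ermn fell by 6.04 ± 0.11 (adjusted p = 1.7e-15), which left 1.46 and 1.51% of their naive levels. Mog (-5.05 ± 0.10), Mbp (-4.87 ± 0.05) and Opalin (-4.78 ± 0.24) came next, and Mag fell by 3.76 ± 0.08. A gap separated these from Mal (-1.68 ± 0.07), Cnp (-1.61 ± 0.05) and Cldn11 (-1.47 ± 0.06, adjusted p = 1.7e-11), which kept 31.2, 32.9 and 36.0% of their naive levels. The median over the 9 was -4.78, beside -0.03 over all genes tested. The fall was not particular to them, as 8 of 8 neuron markers were also called lower, with a median of -5.32 (-5.62 to -0.17). In this comparison 30.8% of all genes tested were called lower and 60.1% were called in either direction. Opalin stood at -5.66 without vehicle tumor library 1 and at -4.22 without vehicle tumor library 2. All 9 genes were also called without vehicle naive library 2, the only library numbered 915, and without both MRX-2843 tumor libraries. Where a group is left with 1 library, here and below, that library is assumed to vary as the other groups do.

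**Figure D2:**
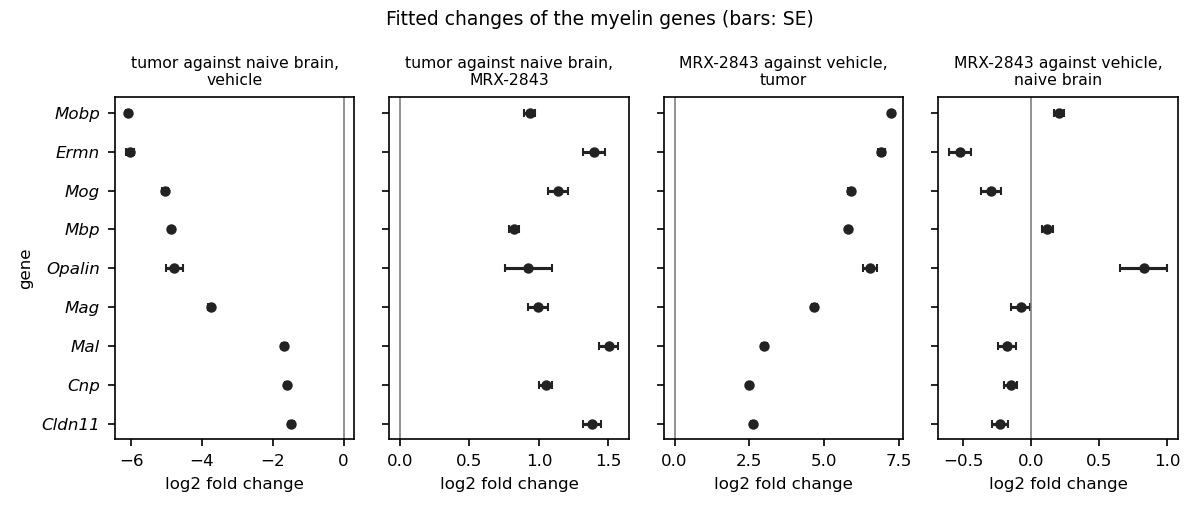
Fitted log2 fold change of each myelin gene in 4 comparisons, 1 panel each with its own horizontal scale; points are estimates, bars are SE, 2 libraries per group. In vehicle mice the changes range from -1.47 for Cldn11 to -6.10 for Mobp, and in MRX-2843 mice from 0.82 for Mbp to 1.5 for Mal.

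Because the falls were unequal, the make-up of myelin RNA differed in vehicle tumor, which no scaling of libraries can change. Levels of different genes are compared here per length, as RPKM over the union of annotated exons. In vehicle naive brain the order was Mbp (432 ± 1.84 RPKM, SD, n = 2), Mobp (142 ± 0.0477), Cnp (89.1 ± 0.121), Cldn11 (80.1 ± 1.01), Mal (58.3 ± 0.776), Mag (51.0 ± 0.557), Mog (47.6 ± 2.65), Ermn (14.2 ± 0.123) and Opalin (4.71 ± 0.0410). Mag, at 51.4 and 50.7 RPKM in the libraries, and Mog, at 49.5 and 45.8, were close neighbours, and Mag passes Cldn11 when the longest transcript is taken as its length (85.4 RPKM). MRX-2843 naive brain had the same order. In vehicle tumor Cnp (29.3 ± 0.694 RPKM) and Cldn11 (28.8 ± 1.43) led and did not differ beyond their spread, followed by Mal (18.2 ± 1.57) and Mbp (14.8 ± 0.113). With the longest transcript as length Cnp (36.7 ± 0.869) lay above Cldn11 (28.8 ± 1.43), and Mbp (26.2 ± 0.199) above Mal. Mobp was sixth there, at 2.07 ± 0.0195 RPKM.

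Cnp, Cldn11 and Mal together made up 77.5 and 77.0% of the 9 genes' summed RPKM in the vehicle tumor libraries. In the other 6 libraries their share was 20.7 to 26.7%. Mbp and Mobp together made up 17.2 and 17.0% in vehicle tumor and 61.1 to 68.0% in the others. With the longest transcript as length, Cnp, Cldn11 and Mal made up 68.7 and 68.2% in vehicle tumor and 14.0 to 18.3% in the others. The order in MRX-2843 tumor was that of naive brain except that Cldn11 (178 ± 9.81 RPKM) and Cnp (166 ± 5.12) changed places, with libraries at 171 and 185 against 162 and 170. With the longest transcript as length they did not change places, at 178 ± 9.81 for Cldn11 and 208 ± 6.42 for Cnp.

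**Figure D3:**
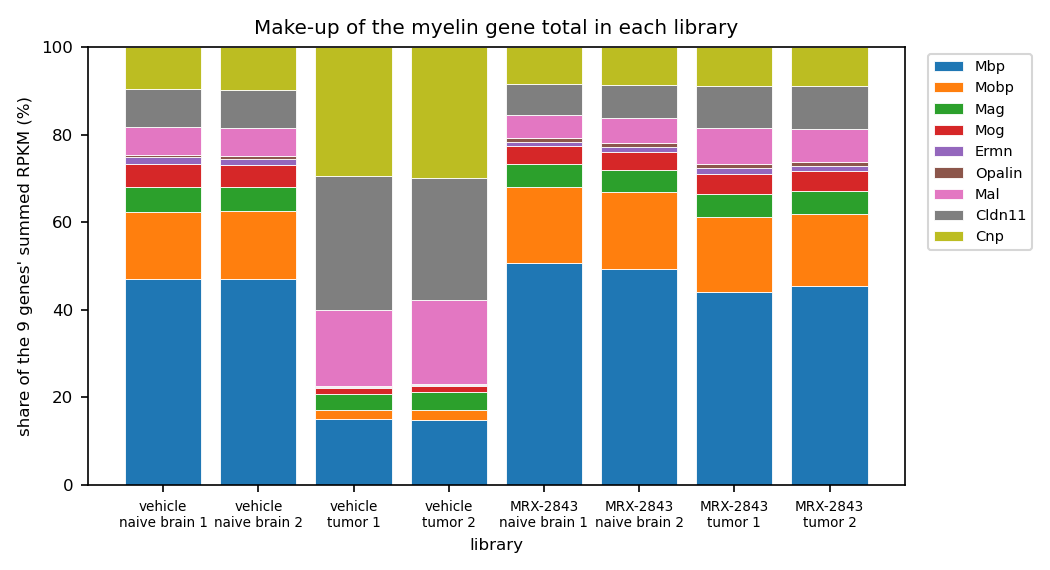
Share of each myelin gene in the 9 genes' summed RPKM, in percent, as a stacked bar for each of the 8 libraries. Cnp, Cldn11 and Mal fill 77.5 and 77.0% of the bar in the vehicle tumor libraries and 20.7 to 26.7% in the other 6.

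In MRX-2843-treated mice the direction was the opposite: all 9 genes were higher in tissue labelled tumor than in naive brain, by 1.77-fold for Mbp to 2.84-fold for Mal. Mal rose by 1.5 ± 0.07 (adjusted p = 1.6e-09), Ermn by 1.40 ± 0.08, Cldn11 by 1.38 ± 0.06 and Mog by 1.14 ± 0.07. Cnp (1.05 ± 0.05), Mag (0.99 ± 0.07), Mobp (0.93 ± 0.04), Opalin (0.92 ± 0.17, adjusted p = 0.0009) and Mbp (0.82 ± 0.04, adjusted p = 2.4e-09) rose less. The median was 1.05 for the 9 genes, where 12.4% of all genes tested were called higher, 11.9% lower and 24.4% in either direction. Neuron markers were mixed in this comparison. Of 8 markers 4 fell and 1 rose, with a median of -0.24. The riser, Slc17a7, a glutamate transporter gene of cortical excitatory neurons, went from 150 ± 3.14 to 795 ± 41.3 CPM (2.40 ± 0.05), more than any of the 9 myelin genes, while Snap25, of the synaptic vesicle fusion machinery, had a mean of 1161 ± 31.4 CPM (SD, n = 2) in MRX-2843 naive brain, beside 1155 ± 41.2 in tumor. The ratio of the members' summed CPM to that of the neuron markers was 0.941 and 0.959 in vehicle naive brain, 1.09 and 1.11 in vehicle tumor, and under MRX-2843 2.12 and 2.01 in naive brain and 3.49 and 3.72 in tumor.

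MRX-2843 tumor exceeded vehicle tumor for all 9 genes, by 5.67-fold for Cnp to 151-fold for Mobp. Log2 fold changes were 7.24 ± 0.05 for Mobp (adjusted p = 5.2e-19), 6.91 ± 0.12 for Ermn, 6.53 ± 0.24 for Opalin, 5.89 ± 0.10 for Mog and 5.81 ± 0.05 for Mbp. They were 4.67 ± 0.08 for Mag, 3.01 ± 0.07 for Mal, 2.63 ± 0.06 for Cldn11 and 2.50 ± 0.05 for Cnp (adjusted p = 3.7e-15). This comparison shares its vehicle tumor and MRX-2843 tumor libraries with the comparisons against naive brain, and in it 30.6% of all genes tested were called higher, 29.8% lower and 60.4% in either direction. Opalin was at 7.41 without vehicle tumor library 1 and 5.97 without library 2. The comparison carries the differences in column number and in Xist given above. Neuron markers moved with the myelin genes here, with 7 of 8 higher and 1 lower (median 4.48) and Snap25 higher by 4.70 ± 0.05. The proliferation genes (6 of 6 lower) and microglia markers (6 of 6 lower) moved the other way, with summed levels of 342 and 343 against 67.2 and 59.1 CPM and of 2463 and 2473 against 370 and 368 CPM.

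Between the naive groups the 9 genes did not move together. Opalin was 1.78-fold higher in MRX-2843 naive brain (0.83 ± 0.17, adjusted p = 0.0026), Mobp was higher by 0.21 ± 0.04 (adjusted p = 0.00091) and Mbp by 0.12 ± 0.04 (adjusted p = 0.038). Ermn fell by 0.53 ± 0.08 (adjusted p = 0.00019), Mog fell by 0.30 ± 0.07 (adjusted p = 0.0094), Cldn11 fell by 0.23 ± 0.06 (adjusted p = 0.014) and Cnp fell by 0.15 ± 0.05 (adjusted p = 0.035). Mal (-0.17 ± 0.07, adjusted p = 0.081) and Mag (-0.08 ± 0.07, adjusted p = 0.50) did not pass. Thus 3 rose and 4 fell, where 9.78% of all genes tested were called higher, 11.7% lower and 21.5% in either direction. The number called was 3 without vehicle naive library 1, 4 without vehicle naive library 2 and 4 without MRX-2843 naive library 1. Opalin, Mobp and Ermn kept their calls in each of these. The naive groups also differed in neuron markers, with Slc17a7 at 1684 ± 19.1 CPM in vehicle and 150 ± 3.14 in MRX-2843 naive brain. The part of this difference in the myelin values was not tested.

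The interaction of treatment and tissue, which tests whether the difference between tumor and naive brain itself differed between treatments, passed for all 9 genes. It ranged from 2.66 ± 0.07 for Cnp (adjusted p = 1e-13) to 7.44 ± 0.14 for Ermn (adjusted p = 4.3e-15), where 26.3% of all genes tested were called positive, 25.3% negative and 51.6% in either direction. The value of Opalin was 6.58 without vehicle tumor library 1 and 5.15 without library 2.

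Most other listed genes of myelin moved in the same direction as the members. Over all genes tested, 29.3% were called higher and 30.8% lower in vehicle tumor, and 12.4% and 11.9% in MRX-2843 tumor, each against naive brain. Of 20 listed genes of myelin proteins and lipids, 15 fell and 3 rose in vehicle tumor against naive brain (median -2.48), and 19 rose in MRX-2843 tumor against naive brain (median 0.93). The gene that did not pass there was Arsa (0.01 ± 0.09), encoding a sulfatide-degrading enzyme. Tspan2, a tetraspanin gene, fell by 2.63 ± 0.11 in vehicle tumor and rose by 1.19 ± 0.10 in MRX-2843 tumor. Cers2, encoding a ceramide synthase for very long chain lipids, rose in both, by 1.40 ± 0.07 and 0.59 ± 0.07, and Tmem63a and Ninj2 were the other risers in vehicle tumor.

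Transcription factors of the oligodendrocyte lineage did not follow the members in vehicle tumor. Of 10 listed factors 6 rose and 2 fell there (median 0.83), and 7 rose and 1 fell in MRX-2843 tumor against naive brain (median 0.73). Of all genes tested, 29.3% were called higher and 60.1% in either direction in the vehicle comparison. Under MRX-2843 these shares were 12.4 and 24.4%. Sox10, required for oligodendrocyte differentiation, was at 41.9 ± 1.83 CPM in vehicle naive brain, 452 ± 7.38 in vehicle tumor, and under MRX-2843 44.5 ± 3.33 in naive brain and 79.8 ± 6.22 in tumor. It was thus highest in the group in which the myelin genes were lowest. Olig1, a lineage factor, rose in vehicle tumor by 1.12 ± 0.06, and Myrf, which drives myelin gene transcription after the cell cycle is left, rose by 0.55 ± 0.07 there and by 1.23 ± 0.07 in MRX-2843 tumor. The falling factors in vehicle tumor were St18 and Nkx6-2.

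Most oligodendrocyte precursor markers were higher in vehicle tumor than in naive brain. Of 7 markers 6 rose and 1 fell in vehicle tumor (median 2.63), against 29.3% of all genes tested called higher, while 2 rose and 2 fell in MRX-2843 tumor against naive brain (median 0.06). In the MRX-2843 comparison 12.4% of all genes tested were called higher, 11.9% lower and 24.4% in either direction. Vcan, a matrix proteoglycan gene, rose by 4.29 ± 0.10, Cspg4, encoding NG2, by 3.26 ± 0.08, and the growth factor receptor gene Pdgfra by 1.63 ± 0.08 in vehicle tumor. Among 10 genes of newly formed oligodendrocytes 2 rose and 6 fell in vehicle tumor (median -0.67), where 30.8% of all genes tested were called lower. The actin regulator gene Cyfip2 was at -2.81 ± 0.05, Bcas1, a marker of early myelinating cells, at -1.48 ± 0.07 and the kinase gene Fyn at -0.60 ± 0.08. In MRX-2843 tumor against naive brain 4 of these 10 rose and 6 did not pass (median 0.18), and Bcas1 rose by 0.64 ± 0.06.

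**Figure D4:**
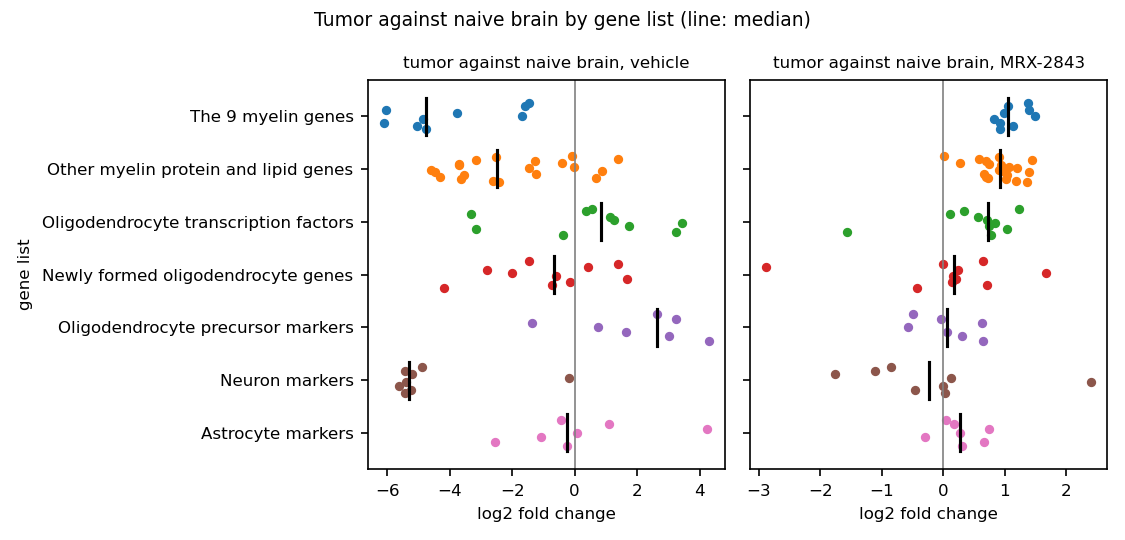
Log2 fold change of tumor against naive brain for each tested gene of 7 lists, in vehicle (left) and MRX-2843 (right) mice; each point is 1 gene and the vertical line is the list's median. In vehicle mice the 9 myelin genes have a median of -4.78 and the precursor markers 2.63, and in MRX-2843 mice the medians are 1.05 and 0.06.

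Genes at the border of myelin and axon were mixed. Of 10 node and paranode genes 8 fell and 2 rose in vehicle tumor (median -2.47), and 3 rose and 4 fell in MRX-2843 tumor against naive brain (median -0.03). Over all genes tested 30.8% were called lower and 29.3% higher in vehicle tumor, and 11.9% and 12.4% in MRX-2843 tumor, each against naive brain. Nfasc, whose glial form anchors myelin loops and whose neuronal form gathers sodium channels, fell by 0.52 ± 0.06 and rose by 0.59 ± 0.06 in these comparisons. Sptbn4, a spectrin gene of axonal nodes, fell by 5.22 ± 0.12 in vehicle tumor, and Cntn2, an adhesion gene of the juxtaparanode, rose by 0.87 ± 0.05. Of 9 myelin inhibitors of axon growth and their receptors 6 fell and 3 rose in vehicle tumor (median -2.24), and 6 rose and 1 fell in MRX-2843 tumor against naive brain (median 0.64). Rtn4, encoding Nogo, fell by 1.24 ± 0.05 in vehicle tumor, and Lingo1, a co-receptor gene, fell by 4.09 ± 0.08. Ngfr, encoding the p75 neurotrophin receptor, was at 1.36 ± 0.904 CPM in vehicle naive brain and 310 ± 0.227 CPM in vehicle tumor.

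Some members are also expressed outside oligodendrocytes, so markers of such cells were read in the same libraries. For the counts below, 29.3% of all genes tested were called higher and 30.8% lower in vehicle tumor against naive brain. The Schwann cell markers had a summed level of 84.2 and 91.8 CPM in vehicle tumor and 13.0 to 26.4 CPM elsewhere, of which Cdh19 alone gave 78.8 ± 4.58 CPM in vehicle tumor. Of the 6 markers, 3 of 5 tested rose there and 1 fell, and the neural crest factor gene Foxd3, at 5.78 and 5.60 CPM, was at 0 in the other 6 libraries. Pmp2, a gene of peripheral myelin, had 0 counts in all 8 libraries. The 7 leptomeningeal and arachnoid markers summed to 1089 and 1109 CPM in vehicle naive brain, 1220 and 1240 in vehicle tumor, and under MRX-2843 787 and 804 in naive brain and 318 and 334 in tumor. Of these 4 rose and 2 fell in vehicle tumor, with the fibroblast matrix genes Lum (7.74 ± 0.13) and Dcn (4.80 ± 0.10) among the risers and Ptgds, a prostaglandin synthase gene, at -0.76 ± 0.04. Their part in the Cldn11 level of vehicle tumor was not tested. Astrocyte markers summed to 3568 and 3641 CPM in vehicle tumor against 2254 and 2253 in its naive controls, with 2 of 7 higher and 4 lower. Gfap alone gave 2676 and 2734 CPM in vehicle tumor, and without it the sums were 892 and 907 against 2111 and 2109 CPM.

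The genes whose profile over the 8 libraries was most like that of the 9 members included the listed myelin genes Tmem88b and Ppp1r14a. Likeness was measured as the root mean square difference between centred log2 profiles (0.5 CPM added), over 13005 genes with a mean log2 value of at least 2, and it is a description. Among the closest were Tmem88b (0.160), Col19a1 (0.160), Ppp1r14a (0.173), Tenm2 (0.203) and Cntnap3 (0.250). Tmem88b was at 82.2 ± 0.596 CPM in vehicle naive brain, 6.62 ± 0.931 in vehicle tumor, and under MRX-2843 74.1 ± 2.18 in naive brain and 150 ± 6.59 in tumor. Col19a1, a collagen gene, was at 8.75 ± 1.30, 0.252 ± 0.0614, 7.90 ± 0.953 and 16.1 ± 0.498 CPM in the same groups. Among the members Mag was nearest to the mean profile (0.101), and Mobp (1.06) and Cldn11 (0.995) were farthest, on opposite sides.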

How the data were processed

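RNA of 8 mouse brain and brain tumor libraries was analysed from the deposited table of raw read counts per gene, whole numbers that the authors had not normalized. The submitters' processing notes list the builds mm10 and hg38 and the tools featureCounts, Subread, STAR 2.7.7a and SAMtools, without roles; annotation release and strand setting are not given in the sources used here. The model was edgeR 4.0.16 under R 4.3.3 (TMM, filterByExpr by group with a minimum count of 10, 4 group means, 4 residual degrees of freedom, quasi-likelihood test, Benjamini-Hochberg over 24356 genes). The common biological coefficient of variation was 21%. SE was taken as |log2 fold change| divided by √F. Exon lengths came from GENCODE M21 on GRCm38, which held 94.1% of the identifiers without version. Duplicates of a group differed by 8.82 to 17.9 chi-square units per degree of freedom, more than sampling noise. The fit was run on simulated counts in which few genes changed. Far more genes were called here, so that run does not show how the scaling or the test behaves in these data. The 9 members and the 12 other lists were chosen with earlier results of these data known. All members were named, plus the 3 most abundant genes of each list, the 6 closest profiles, and further list genes (Tmem63a, Ninj2, Arsa, St18, Nkx6-2, Pmp2) chosen after their values were seen; some genes that this rule names are not reported here. Alternatives were other scalings, DESeq2 1.42.0 as the test, other filters, a replicate block, subsets of libraries or genes, and a minimum fold change. Tables and plots used matplotlib 3.10.9, pandas 2.3.3 and NumPy 2.4.6 under Python 3.11.15. Floors of 3 counts cover counting error only.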

Additional observations from a re-analysis of the deposited data

Results flagged for a closer look

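The difference between tumor and naive brain was not the same under the 2 treatments for any of the 9 myelin genes, by edgeR's test of the interaction. Over all genes tested, 26.3% were called positive in that test and 51.6% in either direction. The log2 value, MRX-2843 minus vehicle, was 7.44 for Ermn, 7.03 for Mobp, 6.18 for Mog, 5.70 for Opalin and 5.69 for Mbp. It was 4.75 for Mag, 3.18 for Mal, 2.86 for Cldn11 and 2.66 for Cnp. In each case the gene fell in vehicle tumor and rose in MRX-2843 tumor relative to its own naive group, 2 libraries against 2. In mitochondrial share and neuron markers the libraries labelled MRX-2843 tumor lay nearer to MRX-2843 naive brain than to vehicle tumor, and their labels were kept. All MRX-2843 libraries differ from all vehicle libraries in Xist and in the number of their column, which cannot be told apart from treatment.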

How the results depend on the processing

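For vehicle tumor against naive brain, MRX-2843 tumor against vehicle tumor and the interaction, all 9 genes kept direction and call under every alternative run (16 to 18 for each gene). The log2 value of Opalin moved most, from -5.66 to -4.22 in vehicle tumor against naive brain. In MRX-2843 tumor against naive brain 9 genes were called under each alternative except a minimum absolute log2 fold change of 1, which left 5 (1363 of 5935 genes in all). Between the naive groups that minimum left 0 of 7 (1389 of 5225 genes in all, edgeR), and it left 9706 of 14715 genes for MRX-2843 tumor against vehicle tumor. Leaving out 1 library in turn gave 3 to 8 called genes between the naive groups, and 9 in each of the other comparisons, where a library left alone in its group is assumed to vary like the others. Over all alternatives between the naive groups, 22 gene-wise calls were lost and 7 were gained, with no direction reversed, and Mbp was not called with DESeq2 size factors, library totals or DESeq2's test. Mal was called in both of the first and last of these. The replicate number of the labels did not pair the libraries (correlations of deviations -0.017 to 0.016), and with it as a replicate block 6 genes were called between the naive groups, Cnp being lost, and 9 elsewhere. Library totals without scaling shifted the all-gene median (log2) by 0.24 in vehicle tumor against naive brain and by -0.21 in MRX-2843 against vehicle tumor, less than the change of any member. With the longest transcript as length, levels in vehicle naive brain were 763 RPKM for Mbp, 295 for Mobp, 85.4 for Mag, 112 for Cnp and 4.96 for Opalin. The fit without both MRX-2843 tumor libraries was chosen after the data were seen. With 2 libraries a group an exact permutation test cannot go below p = 0.333, so none is given.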
